A study of Mus musculus with 6 samples.

Results

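Cldn5, Flt1, Pecam1, Abcb1a, Abcg2, Mfsd2a, Slc2a1, Slco1a4 and Tek, 9 genes known for the blood-brain barrier and the endothelium, were followed by name through a table of 24841 genes in nuclei of mouse striatum, the brain region that receives dopamine and helps select movements. All 9 were found in that table, 1 row each. They were read in every nucleus, by cell class and by genotype.

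In the brain, endothelial cells line the vessels and are joined by tight junctions, so that most molecules cross from blood to tissue only through the cells themselves. These cells carry nutrients inward with dedicated transporters, return many drugs and toxins to the blood with ATP-driven pumps, and hold back vesicle transport. Cldn5 is the main sealing protein of these junctions, and Pecam1 is an adhesion protein at endothelial cell contacts. Flt1 is a receptor that binds vascular endothelial growth factor, and Tek (Tie2) is the receptor of the angiopoietins. Slc2a1 (GLUT1) carries glucose, Slco1a4 carries organic anions, and Mfsd2a carries lysophospholipids that hold docosahexaenoic acid and restrains transcytosis. Abcb1a (P-glycoprotein) and Abcg2 (BCRP) are efflux pumps.

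The study set wild type mice against mice heterozygous for Celsr3, a cadherin-type adhesion receptor of the planar polarity family that is best known in neurons. Striatum was dissected and frozen, nuclei were extracted, and 3 libraries per genotype were made with droplet 3′ chemistry and sequenced together. The labels call the libraries biological replicates and name no allele, sex, age, strain or treatment, so the p-values measure the spread between these libraries. The labels name no cell sort, so vascular nuclei were counted as they came among all nuclei.

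The 6 libraries held 7735 to 8875 nuclei each, 48834 in all, and 48051 remained after likely doublets were left out. A depth-corrected value was available for each gene and nucleus, with no raw counts, and median genes detected per nucleus ran from 2435 (wild type replicate 1, the lowest library) to 3004. The Celsr3 level averaged 0.0747, 0.10 and 0.108 per nucleus in wild type and 0.0616, 0.0695 and 0.0647 in heterozygous libraries, so the groups did not overlap and the heterozygous mean was 69.2% of wild type (log2 difference -0.46 ± 0.14 SE, limma adjusted p = 0.457, not called). Barcodes that occurred in more than 1 library belonged to 1.12% of nuclei, among them 5 endothelial-like nuclei. Choroid plexus-like nuclei came from 3 libraries only (63, 49 and 0 in wild type, 0, 0 and 125 in heterozygous), and fibroblast-like nuclei numbered 15, 27 and 30 in wild type and 98, 23 and 35 in heterozygous libraries.

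Cell classes were clustered without the 9 genes, and none of the 9 is an endothelial, mural or fibroblast marker of the naming lists. The leading genes of a cluster, which also entered the naming, were ranked over all genes, the 9 included. Endothelial-like nuclei numbered 655 and were high for all 12 endothelial markers, among them Cdh5, Erg and Ptprb. A further group of 313 nuclei, cluster 29, was high for the same 12 markers and also for 6 of 9 mural markers, the genes of pericytes and smooth muscle. In cluster 29, 46.3% of nuclei held at least 3 endothelial and 3 mural markers, against 0.611% of endothelial-like and 3.30% of mural-like nuclei, and its median of 2472 genes per nucleus was above the 1800 of endothelial-like nuclei. The remaining 53.7% of cluster 29 held at least 3 endothelial markers without 3 mural markers, and 0% held the reverse. A doublet score over 0.2 was found in 0.958% of its retained nuclei, a smaller share than in endothelial-like nuclei. Cluster 29 was given no cell type name because the mural list also reached 50% with at least as many leading markers. Its values are given apart from those of endothelial-like nuclei. Whether its nuclei are pairs of cells was not tested.

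Most of the 9 genes marked endothelial-like nuclei together. An endothelial-like nucleus held 5.81 ± 0.110 of the 9 genes above 0 (SD over libraries, n = 6), and 78.4% of endothelial-like nuclei held at least 5. In cluster 29 the mean was 8.10 ± 0.153 genes. Neuron-like nuclei held 0.347 and oligodendrocyte-like nuclei 0.252 of the 9, with medians of 3405 and 1877 genes detected, so the class with more detected genes was still far below the vascular nuclei. Endothelial-like nuclei were the highest of 13 named classes for 8 of the 9 genes, Mfsd2a being the exception. Cluster 29 was above endothelial-like nuclei for all 9, from 146% of the endothelial-like level for Tek to 384% for Cldn5. Its level was 26.5 ± 3.22 for Flt1 and 2.65 ± 0.272 for Tek, the receptors, and 2.73 ± 0.201 for Pecam1. The efflux pumps Abcb1a and Abcg2 were at 5.66 ± 0.416 and 4.1 ± 0.445 in cluster 29, and the carrier Slco1a4 at 17.1 ± 1.31.

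**Figure D1:**
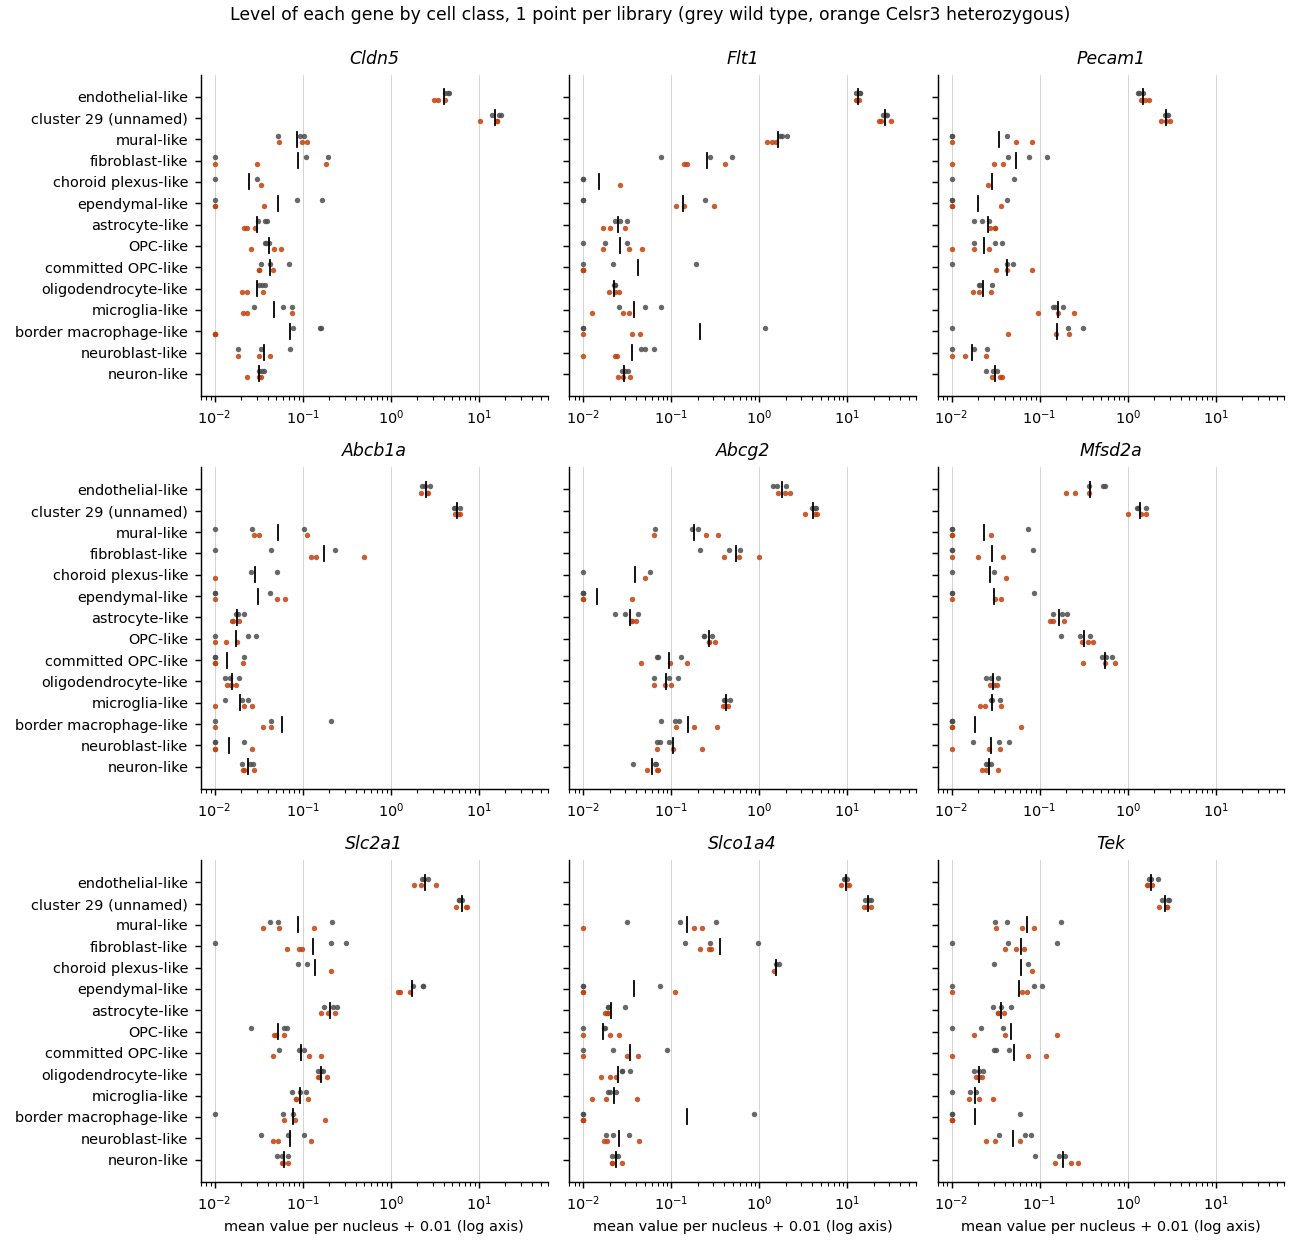
Mean value per nucleus plus 0.01 (log axis) of each of the 9 genes in each cell class, with 1 point per library (grey wild type, orange Celsr3 heterozygous) and a black line at the mean of the libraries. Endothelial-like nuclei and cluster 29 lie to the right for most genes, while Mfsd2a is also found in the oligodendrocyte precursor classes, Slc2a1 in ependymal-like and Tek in neuron-like nuclei.

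Cldn5, the tight junction seal, was the most restricted in relative terms. The gene is a single exon on mouse chromosome 16, 18776847 to 18778262 on the plus strand of GRCm38. The bases just before its start are shown because Cldn5 separated endothelial-like nuclei from all other named classes by the widest factor of the 9. They lie at chr16:18776597-18776846 on the plus strand (RefSeq, GRCm38.p6), and capitals would mark short core motifs of endothelial and barrier transcription factors.

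Cldn5: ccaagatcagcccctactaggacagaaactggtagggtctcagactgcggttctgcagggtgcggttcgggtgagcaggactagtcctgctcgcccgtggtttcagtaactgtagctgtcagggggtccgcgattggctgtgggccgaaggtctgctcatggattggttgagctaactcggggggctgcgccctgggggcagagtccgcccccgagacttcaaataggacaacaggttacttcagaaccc

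This window had 59.6% G and C and no match to any of the 5 motifs searched on both strands. Those were CAGGAA and CCGGAA for ETS factors, TAAACA for forkhead factors, TCAAAG for the TCF/LEF factors of Wnt signalling and ACAATG for SOX factors. Of 32817 promoter windows of the same 250 bases, 25.7% held CAGGAA, 12% CCGGAA, 12% TAAACA, 13.8% TCAAAG and 10.7% ACAATG.

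In endothelial-like nuclei the Cldn5 level was 4.55, 4.09 and 4.41 in the wild type and 4.13, 3.11 and 3.44 in the heterozygous libraries, a mean of 3.95 ± 0.564 (SD, n = 6), and 78.1% of these nuclei were above 0. The next named class, fibroblast-like nuclei, was at 0.0795 ± 0.0851, so the endothelial-like mean was 49.7-fold higher and the ranges over libraries did not overlap. Fibroblast-like nuclei overlapped all lower classes over libraries. Mural-like nuclei (0.0754, from 0.0426 to 0.103) lay above neuron-like, oligodendrocyte-like, astrocyte-like and choroid plexus-like nuclei without overlap, and overlapped the other lower classes. Cluster 29 averaged 15.2 ± 2.70, from 10.3 in heterozygous replicate 2 to 17.7 in wild type replicate 3. Because of that level, 55.0% of the summed Cldn5 value lay in cluster 29, which held 0.651% of nuclei, and 31.6% in endothelial-like nuclei, which held 1.36%.

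Pecam1, the other protein of cell contacts (chromosome 11, 106654217 to 106750628, minus strand), reached further into immune cells. Its level in endothelial-like nuclei was 1.30, 1.49 and 1.33 in wild type and 1.73, 1.39 and 1.56 in heterozygous libraries, a mean of 1.47 ± 0.163. Microglia-like nuclei were next at 0.153 ± 0.0497, 9.58-fold lower, and border-associated macrophage-like nuclei followed at 0.147 ± 0.113. The last 2 overlapped. Endothelial-like nuclei and cluster 29 held 31.3% and 28% of the summed Pecam1 value, neuron-like nuclei 17.7% and microglia-like nuclei 11.3%, since small values in abundant classes add up.

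Flt1 and Tek, the receptor pair, shared endothelial-like nuclei as their highest class and differed in their next class. Flt1 lies on chromosome 5, 147561604 to 147726011 on the minus strand. In endothelial-like nuclei it was at 13.7, 13.9 and 12.7 in wild type and 12.5, 13.6 and 13 in heterozygous libraries (mean 13.2 ± 0.602), and 95.2% of these nuclei were above 0. Mural-like nuclei, the pericytes and smooth muscle cells that wrap the vessels, followed at 1.62 ± 0.304 with 52.8% of nuclei above 0. Their range over libraries overlapped neither endothelial-like nuclei above nor fibroblast-like nuclei (0.248) below. Neuron-like nuclei, with a larger median number of detected genes, were above 0 for Flt1 in 1.70%.

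Tek lies on chromosome 4, 94739289 to 94874976 on the plus strand. Its upstream bases are shown because Tek was the only one of the 9 whose summed value lay mainly in neuron-like nuclei. They lie at chr4:94739039-94739288 on the plus strand (RefSeq, GRCm38.p6), with 51.2% G and C, and capitals mark the ETS core motif, read here as its reverse complement.

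Tek: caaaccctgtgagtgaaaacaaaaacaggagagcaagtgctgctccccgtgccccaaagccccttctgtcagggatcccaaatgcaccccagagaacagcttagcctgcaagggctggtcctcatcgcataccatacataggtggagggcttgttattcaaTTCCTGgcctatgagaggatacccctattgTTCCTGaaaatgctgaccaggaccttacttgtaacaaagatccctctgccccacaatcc

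The window held 2 ETS matches and none of the other motifs. The Tek level in endothelial-like nuclei was 1.73, 2.17 and 1.82 in wild type and 1.86, 1.69 and 1.65 in heterozygous libraries (mean 1.82 ± 0.189), with 56.8% of nuclei above 0. Neuron-like nuclei came next among named classes at 0.174 ± 0.0644, 10.4-fold lower than endothelial-like nuclei, and 15.2% of them were above 0. In oligodendrocyte-like nuclei 0.81% were above 0, at 1877 median genes against 3405 in neuron-like nuclei. Of the members, Cldn5 and Flt1 were above 0 in 2.11% and 1.70% of the same neuron-like nuclei, and Tie1, the partner receptor of Tek in endothelium, was at 0.00209 in neuron-like against 0.445 in endothelial-like nuclei.

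Because neurons are the most abundant class, 61.5 ± 13.7% of the summed Tek value lay in neuron-like nuclei, against 17.9% in endothelial-like nuclei and 13.1% in cluster 29. The neuronal share ranged from 42.7% to 77.5% over libraries. Tek was found in all 7 neuron classes. Its mean was highest in glutamatergic neuron-like nuclei at 0.284 ± 0.0951 and lowest in the MSN-like class at 0.113 ± 0.0344, with D1 MSN-like nuclei at 0.156 ± 0.0554 and D2 MSN-like nuclei at 0.133 ± 0.0495 (MSN are the medium spiny neurons, the main cells of the striatum). These ranges overlapped between neighbours. Abcg2 was also higher in glutamatergic neuron-like nuclei, at 0.151 ± 0.0322, than in D1 MSN-like nuclei at 0.0192 ± 0.00494, and those ranges did not overlap.

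**Figure D2:**
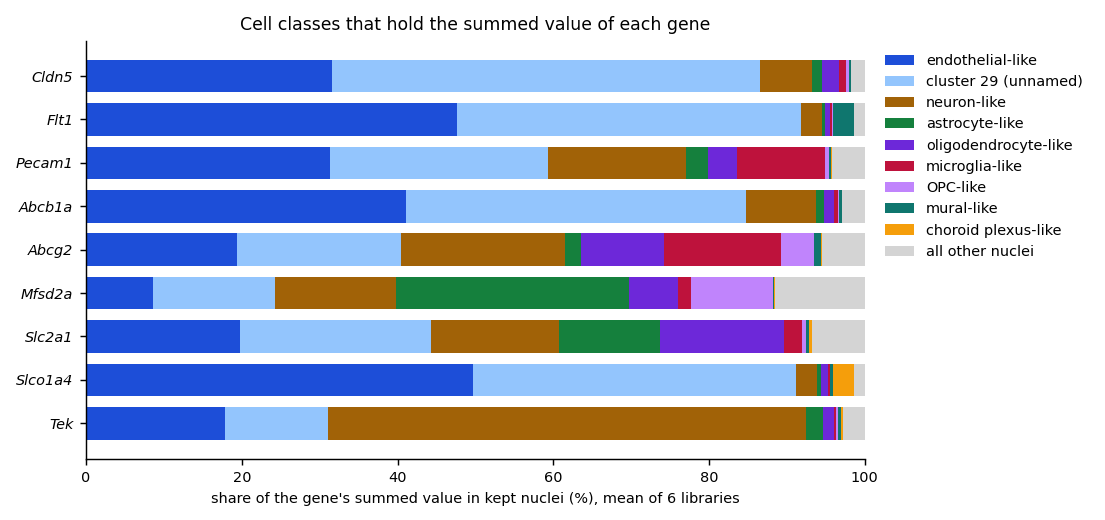
Share of the summed value of each gene (percent of all nuclei that were used, mean of 6 libraries) held by each cell class, as stacked bars that end at 100%. Endothelial-like nuclei and cluster 29 hold 91.8% for Flt1 and 91.2% for Slco1a4, while neuron-like nuclei hold 61.5% for Tek and astrocyte-like nuclei 29.96% for Mfsd2a.

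The efflux pumps differed in how far they extended past the endothelium. Abcb1a (chromosome 5, 8660077 to 8748575, plus strand) was at 2.75, 2.26 and 2.46 in wild type and 2.54, 2.61 and 2.17 in heterozygous endothelial-like nuclei (mean 2.46 ± 0.216). The next class, fibroblast-like nuclei, was 15.1-fold lower at 0.163 ± 0.174. Of its exonic 50-base words, 17.6% also occur in Abcb1b or Abcb4, so its level is uncertain to the extent that reads fell on these shared words. Abcb1b was at 0.0259 in endothelial-like, 0.0724 in astrocyte-like and 0.0591 in neuron-like nuclei.

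Abcg2 (chromosome 6, 58584523 to 58695676, plus strand) was at 1.98, 1.56 and 1.40 in wild type and 1.64, 1.94 and 2.21 in heterozygous endothelial-like nuclei (mean 1.79 ± 0.304). Fibroblast-like nuclei were only 3.37-fold lower at 0.531 ± 0.260, still with no overlap over libraries. Microglia-like nuclei were at 0.407 ± 0.0286 and oligodendrocyte precursor (OPC)-like nuclei at 0.261 ± 0.0312. The summed Abcg2 value was spread accordingly, with 19.3% in endothelial-like nuclei, 21.2% in cluster 29, 21.0% in neuron-like, 15.1% in microglia-like and 10.6% in oligodendrocyte-like nuclei.

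Among the carriers, Slco1a4 was the one most confined to vessels and choroid plexus. It lies on chromosome 6, 141805440 to 141856199 on the minus strand, and 1.61% of its exonic 50-base words also occur in Slco1a5, Slco1a1 or Slco1a6. Its level in endothelial-like nuclei was 9.05, 9.50 and 9.92 in wild type and 8.42, 9.84 and 10.4 in heterozygous libraries (mean 9.52 ± 0.691). Choroid plexus-like nuclei were 6.11-fold lower at 1.56 ± 0.106 in the 3 libraries that held them, and did not overlap. In the same family, Slco1a5 was at 0.416 in choroid plexus-like and 0.0142 in endothelial-like nuclei, and Slco1c1, the thyroid hormone carrier, was at 4.96 in endothelial-like, 2.66 in choroid plexus-like and 2.53 in astrocyte-like nuclei.

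Slc2a1, the glucose carrier, lies on chromosome 4, 119108711 to 119137983 on the plus strand. Gm12867 and Gm12868 lie on the other strand within it, and whether the counting used strand is not given in the sources used here. The bases before its start are shown because Slc2a1, in contrast to Cldn5, had a non-vascular class near its endothelial level. They lie at chr4:119108495-119108710 on the plus strand (RefSeq, GRCm38.p6), were shortened to 216 bases so that they end before the first annotated transcript start, and held 63.9% G and C and no match to the 5 motifs.

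Slc2a1: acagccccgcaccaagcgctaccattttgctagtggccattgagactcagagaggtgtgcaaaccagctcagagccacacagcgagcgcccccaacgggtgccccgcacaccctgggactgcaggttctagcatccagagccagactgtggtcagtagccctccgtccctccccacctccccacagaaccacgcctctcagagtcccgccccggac

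In endothelial-like nuclei the Slc2a1 level was 2.24, 2.4 and 2.61 in wild type and 2.22, 1.80 and 3.25 in heterozygous libraries (mean 2.42 ± 0.485). Ependymal-like nuclei, which line the ventricles, were at 2.29, 1.77 and 2.31 in wild type and 1.2, 1.26 and 1.63 in heterozygous libraries (mean 1.74 ± 0.481), and overlapped endothelial-like nuclei. Cluster 29 was at 6.34 ± 0.709, from 5.42 to 7.26, and overlapped neither. Within ependymal-like nuclei the genotype groups did not overlap (the heterozygous mean was 64.2% of wild type), as was so for 4.49% of genes with a mean of at least 0.01 there in that direction, with only 10 to 48 nuclei per library and no test. Astrocyte-like (0.194 ± 0.0340) and oligodendrocyte-like nuclei (0.151 ± 0.0165) followed far below. Slc2a3, the neuronal glucose carrier, had the opposite order, at 0.812 ± 0.0441 in neuron-like and 0.12 ± 0.0325 in endothelial-like nuclei.

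Mfsd2a (chromosome 4, 122946850 to 122961188, minus strand) was the member least tied to the endothelium. Committed oligodendrocyte precursor-like nuclei, the stage between precursor and myelinating cell, had the highest mean at 0.545 ± 0.143. Endothelial-like nuclei followed at 0.367 ± 0.141, OPC-like nuclei at 0.307 ± 0.0821 and astrocyte-like nuclei at 0.154 ± 0.0295, and each of these overlapped its neighbour over libraries. Astrocyte-like nuclei did stand apart from the next class, ependymal-like nuclei, at 7.44-fold. By summed value, astrocyte-like nuclei held 29.96% of Mfsd2a, cluster 29 held 15.7%, neuron-like nuclei 15.5%, OPC-like nuclei 10.5% and endothelial-like nuclei 8.57%. In cluster 29 the level was 1.36 ± 0.225, with 60.2% of nuclei above 0 against 17.6% of endothelial-like nuclei. With finer clusters (Leiden resolution 2.0), part of these nuclei joined the endothelial-like class, and Mfsd2a was then at 0.576 in endothelial-like against 0.554 in committed precursor-like nuclei.

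RefSeq promoter windows were found for 8 of the 9 genes, that of Abcb1a before a start upstream of the GENCODE gene given above. No motif was found for Cldn5, Flt1 and Slc2a1. Abcb1a held 1 forkhead and 2 TCF/LEF matches, Mfsd2a 1 TCF/LEF match, and Slco1a4 1 forkhead and 2 SOX matches. Abcg2 has 3 annotated starts, with 2 ETS matches before 1 of them, 1 ETS match before another and 1 SOX match before the remaining one.

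The profiles of the 9 genes over the 13 named classes were compared with those of 15982 other genes by Pearson correlation of log2(mean + 0.01), as a description of likeness over classes that share the same libraries. Cldn5 was most like Adgrl4 (0.984), Gata2 (0.980) and Icam2 (0.976), Abcb1a was most like Itm2a (0.967), Adgrl4 (0.961) and Pglyrp1 (0.959), and Flt1 was most like Nostrin (0.967), Tie1 (0.959) and Ly6a (0.944). Pecam1 was closest to Gimap1 (0.978), Gm20663 (0.954) and Gch1 (0.940), and Slco1a4 to Lsr (0.972), Tinagl1 (0.968) and Gbe1 (0.918). Tek was closest to Mmrn2 (0.927), Dennd3 (0.913) and Slc35f2 (0.904), and Slc2a1 to Fas (0.959), Neurl2 (0.935) and Gm15587 (0.902). The nearest profiles of the remaining members were further off, with Ets1 (0.881), Arpc3 (0.849) and Rab3a (0.844) for Abcg2 and Vps36 (0.867), Lmcd1 (0.854) and Rgcc (0.839) for Mfsd2a. Adgrl4 was a marker used to name the endothelial-like class, as was Tie1. Among the members, Cldn5 and Abcb1a were most alike (0.942), Abcg2 and Slc2a1 least (0.0397), and Mfsd2a reached only 0.0816 to 0.402 with any other member. No gene stood among the 20 nearest of 5 or more members.

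Within the endothelial-like class, sub-clusters built without the 9 genes followed vessel type in part. Sub-cluster 5 (62 nuclei, led by Gm43507, Mannr, 1010001N08Rik, Gkn3 and Col18a1) and sub-cluster 9 (21 nuclei, led by Bgn, Dkk2, Cytl1, Col3a1 and Sdc1) each held 7 of the arterial markers and were arterial-like. Both were also high for 2 venous markers, Vwf and Vcam1. Sub-cluster 4 (79 nuclei, led by Cysltr1, Gm5127, Adgrg6, Il1r1 and Col6a6) held 4 venous markers, Vwf among them, and was venous-like. Sub-cluster 1 (151 nuclei, led by Lmntd1, Gm49969, Plekhh2, 1700042O10Rik and Hmcn1) held only 2 capillary markers and stayed unnamed. Sub-cluster 3 (82 nuclei, led by Vtn, S100a11, AW112010, Ucp2 and Isg15) and sub-cluster 6 (56 nuclei, led by Rgs5, Cxcl12, 1300002E11Rik, Mylip and Ier2), the latter high for 4 mural and 3 capillary markers (Rgcc, Spock2 and Cxcl12), were also unnamed. Smaller sub-clusters 8, 10 and 11 (33, 15 and 11 nuclei) were high for 5 MSN, 8 astrocyte and 4 oligodendrocyte markers, and sub-cluster 7 (34 nuclei) was led by Ttr, a choroid plexus gene.

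Mfsd2a, Slco1a4 and Abcg2 were lower in the arterial-like sub-clusters than in sub-cluster 1. Abcb1a was at 1.78 ± 0.562 in arterial-like sub-cluster 5 and 3.61 ± 0.550 in arterial-like sub-cluster 9, against 3.19 ± 0.572 in sub-cluster 1. Slc2a1 was at 1.98 ± 1.13, 3.61 ± 0.393 and 2.23 ± 0.293 in the same order. Sub-cluster 5 overlapped sub-cluster 1 for both genes, and the sub-cluster 9 values rest on 2 libraries. Mfsd2a averaged 0.0182 ± 0.0407 in sub-cluster 5 and was 0 in both libraries with at least 5 nuclei in sub-cluster 9, against 0.414 ± 0.226 in sub-cluster 1, 0.347 ± 0.254 in the venous-like sub-cluster, which overlapped the arterial-like ones, and 0.721 ± 0.480 in sub-cluster 6. Slco1a4 was at 4.75 ± 1.47 in sub-cluster 5, against 15.2 ± 1.52 in sub-cluster 1 and 12.4 ± 3.35 in the venous-like sub-cluster, with no overlap between arterial-like sub-cluster 5 and either, and lowest of these in unnamed sub-cluster 3 (2.12 ± 0.639). Abcg2 was ordered alike, at 0.766 ± 0.365, 2.87 ± 0.415 and 2.72 ± 0.487. The receptor Tek was higher in the venous-like sub-cluster (3.50 ± 0.722) than in sub-cluster 1 (2.02 ± 0.296), without overlap. Tek was at 2.45 ± 0.695 in arterial-like sub-cluster 5, which overlapped both, and at 5.11 ± 2.04 in arterial-like sub-cluster 9. Pecam1 was at 2.21 ± 0.794 and 4.25 ± 1.06 in the arterial-like sub-clusters and 1.31 ± 0.529 in the venous-like one. Cldn5 was at 8.34 ± 2.30 in sub-cluster 6 and at 7.86 ± 1.37 in arterial-like sub-cluster 9, against 3.19 ± 1.10 in sub-cluster 1. In arterial-like sub-cluster 5 it was at 4.05 ± 0.664, which overlapped sub-cluster 1. These levels are a description and were not tested.

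**Figure D3:**
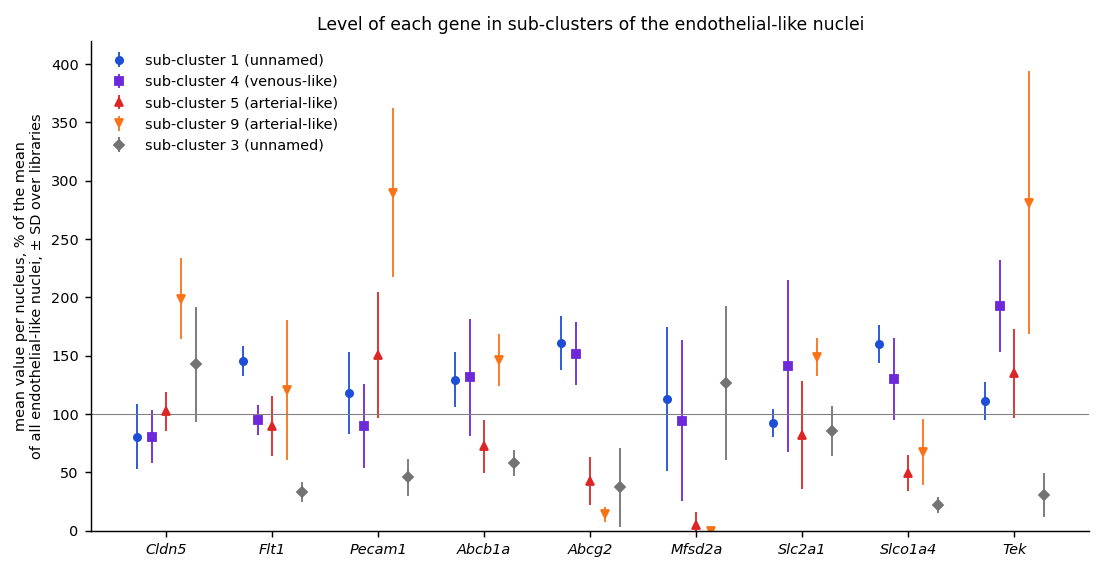
Mean value per nucleus of each gene in 5 sub-clusters of the endothelial-like nuclei, as a percent of the mean of all endothelial-like nuclei, with error bars of 1 SD over the libraries with at least 5 nuclei. The arterial-like sub-clusters are the lowest of the 5 for Mfsd2a, and sub-cluster 1 and the venous-like sub-cluster are the highest for Slco1a4 and Abcg2.

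The amount of endothelium was compared between genotypes by its share of nuclei. Endothelial-like nuclei numbered 91, 125 and 109 in wild type and 111, 102 and 117 in heterozygous libraries, or 1.39 ± 0.208% and 1.34 ± 0.0987% of nuclei (SD, n = 3 each, two-sided exact permutation p = 0.8). Cluster 29 numbered 61, 52 and 68 in wild type and 52, 26 and 54 in heterozygous libraries, or 0.774 ± 0.0943% and 0.536 ± 0.193% (exact p = 0.2). Mural-like nuclei were at 0.695 ± 0.106% and 0.569 ± 0.0694% (exact p = 0.2). Groups of 3 cannot give a p below 0.1. Median genes per endothelial-like nucleus were 1808 ± 8.62 in wild type and 1798 ± 29.7 in heterozygous libraries (exact p = 0.6).

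No member was called between genotypes in endothelial-like nuclei. With limma on log2(mean value per nucleus + 0.01), 0 of the 9 had an adjusted p under 0.05, as had 0% of the 3607 genes tested in that class. At an unadjusted p under 0.05 there were 2 of the 9, Mfsd2a and Cldn5, where 4.96% of all tested genes were. Both were lower in heterozygous libraries.

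Mfsd2a, the lysophospholipid carrier, was at 0.538, 0.520 and 0.358 in wild type and 0.189, 0.245 and 0.35 in heterozygous endothelial-like nuclei. All 3 heterozygous libraries were below all 3 wild type libraries, by a narrow margin between wild type replicate 3 and heterozygous replicate 3. The means were 0.472 ± 0.0994 and 0.262 ± 0.0819, a log2 fold change of -0.85 ± 0.31 (SE, limma adjusted p = 0.925). It was the only member of the 9 whose groups did not overlap in the lower direction, against 4.02% of tested genes, and it was not called. In cluster 29 the same gene was at 1.3, 1.6 and 1.28 in wild type and 1.4, 1.0 and 1.59 in heterozygous libraries, with overlapping groups and a log2 fold change of -0.08. Over endothelial-like nuclei and cluster 29 together it was -0.51 ± 0.22, also with overlapping groups.

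Cldn5 averaged 4.35 ± 0.237 in wild type and 3.56 ± 0.519 in heterozygous endothelial-like nuclei, a log2 fold change of -0.30 ± 0.13 (limma adjusted p = 0.925), with overlapping groups. Heterozygous replicate 2, the lowest at 3.11, was also the lowest of the 6 for Cldn5 in cluster 29.

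The other 7 members had log2 fold changes between -0.13 and 0.23 in endothelial-like nuclei. Abcg2 was at 0.23 and Pecam1 at 0.18, and Tek at -0.13, Flt1 at -0.04, Slc2a1 at -0.04 and Abcb1a at -0.03. Slco1a4 was at 0.00. The median of the 9 was -0.04, beside 0.01 over all genes tested, with 3 members above and 6 below 0.

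The makeup of the endothelial-like class was also set side by side for the genotypes. Sub-cluster 3, in which Mfsd2a was at 0.465 ± 0.242 and Cldn5 at 5.64 ± 1.94, made up 19.8%, 16% and 13.8% of wild type and 9.91%, 3.92% and 12% of heterozygous endothelial-like nuclei, so its groups did not overlap. It was led by Vtn and was high for 2 mural markers. Of the 11 sub-clusters, the shares of 2 did not overlap between genotypes, the other being sub-cluster 8, high for MSN markers, at 5.80 ± 0.520% and 4.22 ± 0.804%. Without sub-cluster 3, left out after its shares by genotype were seen, Mfsd2a was at 0.534, 0.524 and 0.287 in wild type and 0.19, 0.255 and 0.359 in heterozygous libraries. The Mfsd2a groups then overlapped, with means of 0.448 ± 0.14 and 0.268 ± 0.0854, and Cldn5 averaged 3.98 ± 0.362 and 3.47 ± 0.335. Because the margin between the Mfsd2a groups was narrow before, nothing is read from this overlap. The summed level of 8 astrocyte markers in endothelial-like nuclei ranged from 11.92 to 12.7 in wild type and from 9.98 to 11.86 in heterozygous libraries, which did not overlap (7 of 8 lower, none at 0, two-sided exact permutation p = 0.1, the smallest that 3 against 3 allows). Mfsd2a was at 0.154 ± 0.0295 in astrocyte-like nuclei, below its 0.367 ± 0.141 in endothelial-like nuclei. That of 7 oligodendrocyte markers ranged from 31.2 to 35.0 and from 18.5 to 41.8 (6 of 7 lower), and that of 9 mural markers from 1.03 to 1.85 and from 0.874 to 1.30 (9 of 9 lower). The 12 endothelial markers summed to 25.1 to 32.1 and 27.5 to 28.9 (10 of 12 lower), and the 9 fibroblast markers to 0.0440 to 0.272 and 0.118 to 0.477 (7 higher, 1 lower, Bnc2 at 0). Of the other lists looked at, MSN had 3 of 7 markers higher and 4 lower in heterozygous libraries, glutamatergic neuron 5 and 2, and microglia 4 and 3. Border-associated macrophage markers had 3 higher and 2 lower, with Pf4 and Ms4a7 at 0. The groups overlapped for each of these lists too, so the astrocyte list alone did not overlap. The part of these markers, or of the sub-cluster shares, in the Mfsd2a and Cldn5 values was not tested.

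**Figure D4:**
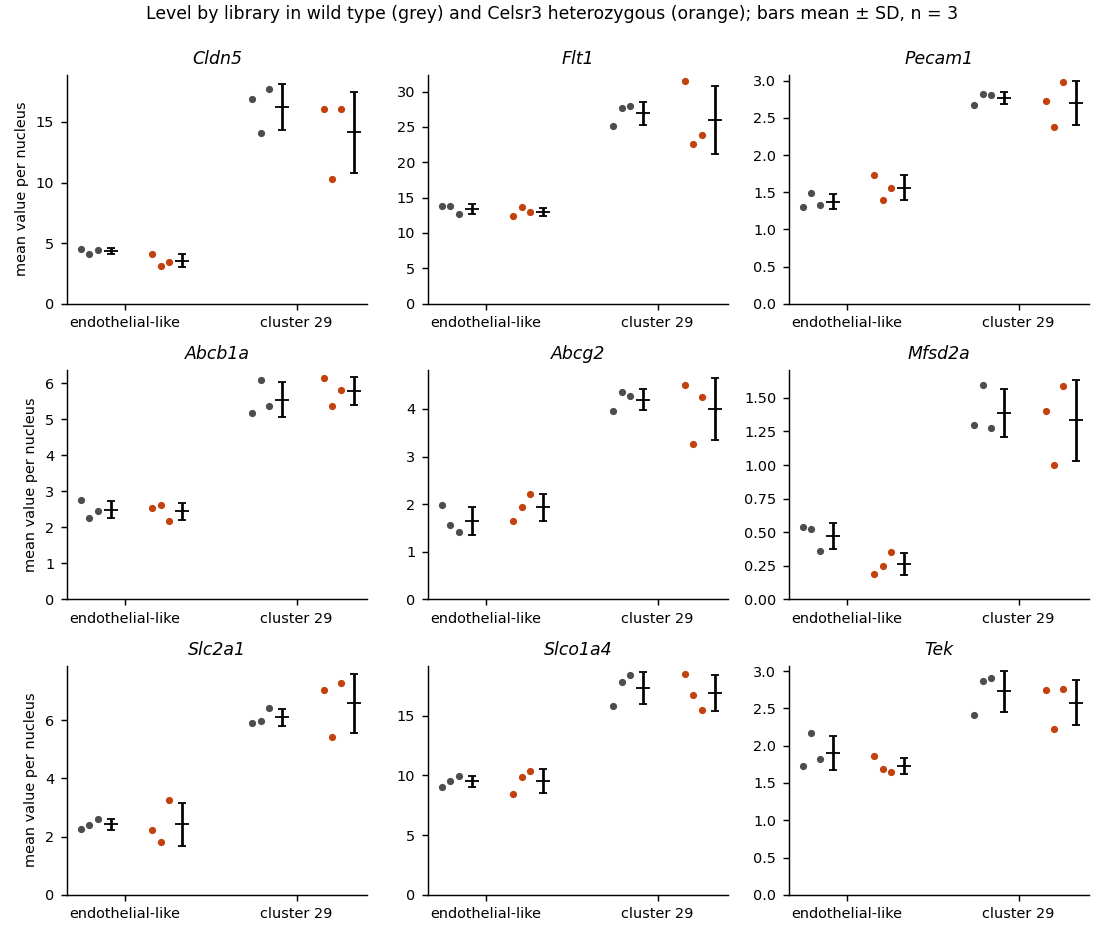
Mean value per nucleus of each gene in endothelial-like nuclei and in cluster 29, with 1 point per library (grey wild type, orange Celsr3 heterozygous) and bars of the mean ± SD of 3 libraries. The groups overlap except for Mfsd2a in endothelial-like nuclei, where the highest heterozygous library is at 0.35 and the lowest wild type library at 0.358.

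In all nuclei together, 8 of the 9 members were lower in heterozygous libraries and none was called (0 of 9 by limma, 0 of 9 at an unadjusted p under 0.05, beside 0% and 9.95% of 14401 genes). Cldn5 went from 0.214 ± 0.0269 to 0.148 ± 0.0559 (log2 fold change -0.57 ± 0.27, limma adjusted p = 0.509), Flt1 had -0.33 ± 0.16 (adjusted p = 0.510) and Slco1a4 -0.29 ± 0.15 (adjusted p = 0.519). The groups overlapped for each. The lowest library for Cldn5 was heterozygous replicate 2 at 0.0849, the library with the fewest nuclei of cluster 29, and without it these were -0.24, -0.16 and -0.13. The value per nucleus and the share of vascular nuclei were measured apart. The heterozygous Cldn5 level was 81.8% of wild type in endothelial-like nuclei and 86.9% in cluster 29, with overlapping groups in both. The heterozygous Flt1 level was 96.9% of wild type in endothelial-like nuclei and 96.6% in cluster 29, and that of Slco1a4 was 101% and 97.5%. The endothelial-like class and cluster 29 together made up 2.16 ± 0.149% of wild type and 1.88 ± 0.287% of heterozygous nuclei (two-sided exact permutation p = 0.2). The part of either in the all-nuclei values was not tested. The median of the 9 was -0.21, beside 0.07 over all genes tested (0.01 with size-factor scaling). Tek was the only member in the higher direction, from 0.131 ± 0.0390 to 0.166 ± 0.0544 (0.32 ± 0.28, limma adjusted p = 0.656). It was at 0.0648 without wild type replicate 1 and 0.0958 without heterozygous replicate 1.

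Outside the endothelium, 0 of the members that passed the filter on low values were called. In mural-like nuclei Flt1 alone passed it, at 2.07, 1.72 and 1.79 in wild type and 1.38, 1.54 and 1.21 in heterozygous libraries. The groups did not overlap, as was so for 3.62% of the 1683 tested genes in that direction, and the log2 fold change was -0.43 ± 0.18 (limma adjusted p = 0.902, with 0% called). Its unadjusted p was under 0.05, as was that of 5.11% of tested genes. These values rest on 39 to 61 nuclei per library.

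In astrocyte-like nuclei 2 members were tested and 0 called by limma, as were 0% of 10995 genes, and 0 of the 2 had an unadjusted p under 0.05, beside 6.36%. Mfsd2a was at 0.131, 0.192 and 0.168 in wild type and 0.13, 0.122 and 0.179 in heterozygous libraries (-0.18 ± 0.18, limma adjusted p = 0.905), and Slc2a1 had -0.11 ± 0.18 (adjusted p = 0.943). Cldn5 and Pecam1 were too low there to be tested. Cldn5 was at 0.0293, 0.0276 and 0.0208 in wild type and 0.0190, 0.0115 and 0.0133 in heterozygous libraries, and Pecam1 at 0.0164, 0.00788 and 0.0120 and at 0.0215, 0.0209 and 0.0172. The groups did not overlap for either, lower in heterozygous libraries for Cldn5 and higher for Pecam1. Of the tested genes, 4.79% and 7.29% did not overlap in those directions. Those genes passed the filter on low values that Cldn5 and Pecam1 did not pass, so the sets are unlike. Over the 12 named classes with 3 libraries per genotype, 95 of the 108 pairs of a member and a class had a mean of at least 0.01, a limit set after the values were seen. The groups did not overlap for 8 of the 95 in the lower and 1 in the higher direction, beside 4.4% and 5.55% of the pairs of any gene and a class. Several of these pairs lie near 0 and pairs share libraries, so nothing about the members is read from this count.

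In neuron-like nuclei 5 members were tested and 0 called by limma, beside 0.014% of 14285 genes (Mid1 and Gm15726), and 0 of the 5 had an unadjusted p under 0.05, beside 7.1%. Tek was at 0.0796, 0.155 and 0.185 in wild type and 0.266, 0.217 and 0.141 in heterozygous libraries, so the groups overlapped. The means were 0.14 ± 0.0544 and 0.208 ± 0.0627, a log2 fold change of 0.57 ± 0.32 (limma adjusted p = 0.731). Wild type replicate 1 was the lowest for Tek in 7 of 7 neuron classes, and its neuron-like nuclei had a median of 3409 genes, within the 3329 to 3499 of the 6 libraries. Without it the fold change was 0.24, and without heterozygous replicate 1, the highest library, it was 0.38. The heterozygous mean was higher in 6 of the 7 classes, cholinergic interneuron-like nuclei (0.235 and 0.180) being the exception. Glutamatergic neuron-like nuclei, the class with the highest Tek level, numbered 574, 208 and 938 in wild type and 1548, 218 and 536 in heterozygous libraries. The part of that makeup in the Tek values was not tested. Pecam1 and Abcg2 had 0.22 and 0.23, Slc2a1 0.07 and Cldn5 -0.23.

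In cluster 29 all 9 members were tested and 0 called, beside 0% of 2440 genes, and 0 had an unadjusted p under 0.05, beside 1.76%. They had log2 fold changes from -0.23 (Cldn5) to 0.10 (Slc2a1) and 7 of the 9 below 0. Each had a limma adjusted p of 0.999.

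**Figure D5:**
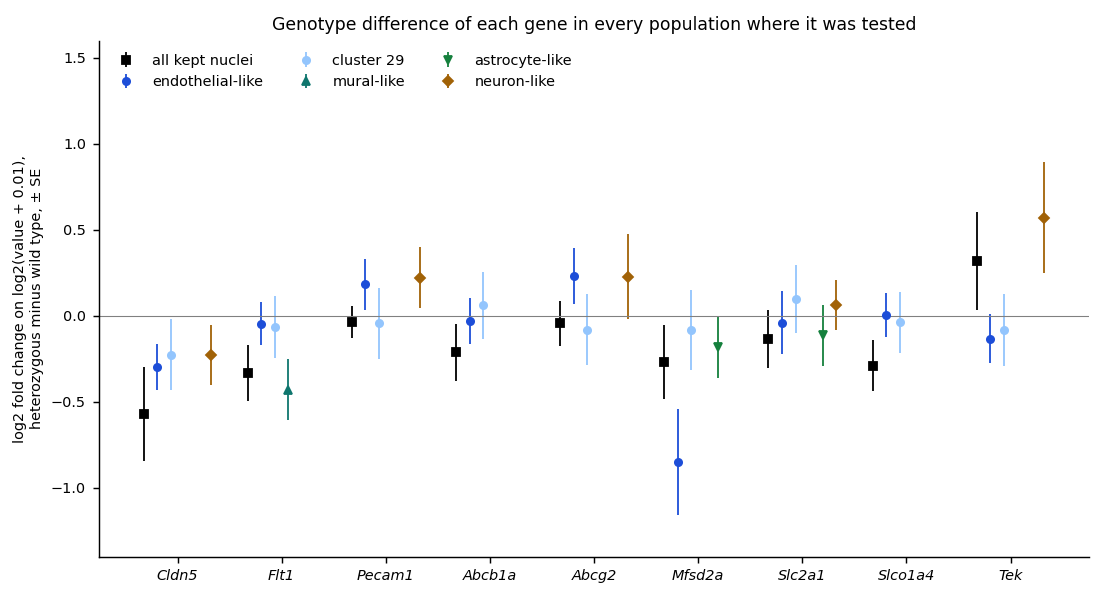
Log2 fold change (heterozygous minus wild type, on log2(value + 0.01)) with its SE for each gene in each population where it was tested. No point passed the test, and the values farthest from 0 are Mfsd2a in endothelial-like nuclei at -0.85 and Cldn5 in all nuclei and Tek in neuron-like nuclei at -0.57 and 0.57.

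The other genes of the barrier and endothelial programme were followed with a list of 77. In endothelial-like nuclei 50 of them were tested and 0 were called, 20 above and 30 below 0, with a median log2 fold change of -0.05. At an unadjusted p under 0.05 there were 3 of the 50, beside 4.96% of all tested genes, and the groups did not overlap for 3 in the higher and 5 in the lower direction, beside 6.6% and 4.02%. Abcc4, 1 of the 3, had also served as a marker of the class. This efflux pump of the same superfamily as Abcb1a and Abcg2 was at 1.40, 1.32 and 1.50 in wild type and 1.92, 2.01 and 2.29 in heterozygous libraries, which did not overlap (0.56 ± 0.14, limma adjusted p = 0.352). Ocln, a tight junction protein, went from 0.794 to 1.10 (0.46 ± 0.17, adjusted p = 0.925), and Vegfc, a growth factor that served as an arterial marker, from 0.585 to 0.321 (-0.96 ± 0.33, adjusted p = 0.857).

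By role, 7 of 10 junction genes were tested, with 5 above 0 and a median of 0.05. Of 20 transporters and receptors 17 were tested, with a median of -0.03, and of 18 genes of growth factor and angiopoietin signalling 11 were tested, with 9 below 0 and a median of -0.09. Among the latter were, named after their values were seen, Kdr, the main signalling receptor for vascular endothelial growth factor, at -0.49 ± 0.26 (adjusted p = 0.925), and Ptprb, a phosphatase that acts on Tek, at 0.01. Both Kdr and Ptprb had also served as markers of the class. The 6 Wnt and Norrin genes tested of 13 had a median of 0.03, the 7 transcription factors of 10 a median of -0.12, and the 2 genes of leaky or activated vessels tested of 6 a median of -0.26. In all nuclei 63 of the 77 were tested and 0 called, 31 above and 32 below 0, with a median of -0.01.

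Over the whole class, the genes of smallest p in endothelial-like nuclei included Rpl29, a ribosomal protein (0.895 to 0.375, -1.23 ± 0.25), Ddx6 (0.72), Zbtb16, a transcription factor (0.326 to 1.12, 1.92 ± 0.44), and Eml1 (1.08). Each had a limma adjusted p of 0.352, and none of these is a member or listed.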

How the data were processed

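Single-nucleus RNA-seq of mouse striatum was used, 3 libraries per genotype. Per the submitters' processing notes, Cell Ranger and Seurat 4.1 were used with builds mm10 and GRCm38; a Cell Ranger version is not given in the sources used here. The deposited table holds, for each gene and nucleus, a whole-number score: totals per nucleus ran only from 4523 to 10638 (CV 10.7%), so the values were read as depth-corrected UMI counts that the authors rounded, not as raw counts. The depth of each library is therefore unknown, genes detected per nucleus stand in for it, and no counting interval was given. The test planned for raw counts was replaced by limma.

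Nuclei with a scrublet score above 0.25 and 5 clusters made mostly of such nuclei (over 40%) were left out (783 nuclei, 1.60%), because scrublet's own calls marked under 0.5% in 2 of 6 libraries. Clusters (scanpy 1.11.5, igraph 0.11.9) came from 2000 variable genes without the 9 members, 30 principal components, 15 neighbours and Leiden resolution 1.0. Fixed marker lists named a cluster when at least 3 markers were over 2-fold higher with a mean over 0.1. These also had to make up 50% of the list or include 1 of the cluster's 10 leading genes, ranked over all genes. No name was given when a list of another cell type also reached 50% with at least as many leading markers. These naming rules were chosen with the clusters in view but without genotype results. Cluster 29 had 1 mural and 0 endothelial markers among its 10 leading genes and was not named. Means per nucleus and library were tested with limma 3.58.1 (R 4.3.3), trended empirical Bayes, on log2(mean + 0.01), for genes with a mean of at least 0.02 and a summed value of at least 30 per library on average, in populations with at least 20 nuclei in every library, with Benjamini-Hochberg adjustment over the genes of a population and calls at 0.05. Fibroblast-like nuclei (at least 15 per library) gave levels only. Fold changes on this scale understate changes of low genes. The fit was tested on simulated data.

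Genes were named as follows: the 9 members everywhere, for each the 3 genes most alike over classes (among genes with a mean of at least 0.05 in a class), listed genes that were called or else the 3 of smallest p in endothelial-like nuclei, the 5 genes of smallest p there (1 of them is not reported here), the 5 leading genes of sub-clusters, and Celsr3. Abcb1b, Slco1a5, Slco1c1, Slc2a3, Tie1, Kdr and Ptprb were added after their values were seen. The members and the lists were chosen with earlier results of these data known. Annotation is GENCODE vM21 on GRCm38. Alternatives were other pseudocounts, no filter, size factors, array weights, the replicate block, each library left out, other clusters and doublets retained.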

Additional observations from a re-analysis of the deposited data

How the results depend on the processing

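No member was called in any population under any alternative that was run, and the smallest limma adjusted p of a member was 0.109 (Cldn5 in all nuclei with array weights, -0.94; 0.109 to 0.868 over its settings). Of 399 alternative values of the 26 fold changes of members, 371 kept their direction and their side of the threshold.

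Some fold changes changed sign. In endothelial-like nuclei Slco1a4 had -0.00680 with size factors, -0.0116 with array weights, -0.00296 with clusters built with the members, -0.0490 at Leiden resolution 2.0, -0.0797 with cluster 29 added and -0.0374 in cluster 29 alone. Pecam1 had -0.00233 and Abcg2 -0.0124 with cluster 29 added, and -0.0425 and -0.0789 in cluster 29 alone, where Abcb1a had 0.0630 and Slc2a1 0.0974. These 2 settings, and all nuclei without choroid plexus-like ones, were chosen after seeing the data. The cause was not tested.

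Leaving out 1 library at a time gave, in endothelial-like nuclei, -1.07 to -0.65 for Mfsd2a and -0.41 to -0.20 for Cldn5, and changed the sign for Abcb1a (-0.0955 to 0.0522), Slc2a1 (-0.27 to 0.15) and Slco1a4 (-0.0585 to 0.0905). In all nuclei Cldn5 ranged from -0.783 to -0.240, Flt1 from -0.491 to -0.158, Slco1a4 from -0.388 to -0.125 and Tek from 0.0648 to 0.548. The sign changed in all nuclei for Pecam1 (-0.0710 to 0.0275), Abcg2 (-0.116 to 0.0983) and Slc2a1 (-0.305 to 0.0378), in astrocyte-like nuclei for Slc2a1 (-0.251 to 0.0293) and in neuron-like nuclei for Abcg2 (-0.0532 to 0.381) and Slc2a1 (-0.0381 to 0.175). Tek in neuron-like nuclei ranged from 0.24 (without wild type replicate 1) to 0.81, Cldn5 there from -0.326 to -0.0694 and Pecam1 from 0.110 to 0.341. Mfsd2a in astrocyte-like nuclei ranged from -0.336 to -0.0631, and Flt1 in mural-like nuclei from -0.511 to -0.340. The difference in the endothelial-like share ranged from -0.148 to 0.0592 percentage points, the last without wild type replicate 2.

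Of all genes in endothelial-like nuclei, where 0 were called by limma (179 at an unadjusted p under 0.05), 6 were called with no filter on low values (among them Dkk2, Zbtb16, Rpl29, Xdh and Il1rapl2), 2 with the replicate block (Zbtb16 among them) and 1 without wild type replicate 1 (Zbtb16); the range over leaving out 1 library was 0 to 1. The replicate block changed no call of a member. Same-numbered libraries of the genotypes correlated at -0.04, 0.14 and -0.07 in their deviations over all nuclei, so the numbers were not taken as pairs.

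Depth per library is unknown, and 91 to 125 endothelial-like nuclei and 3 libraries per genotype limit the precision.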
